A study of Danio rerio with 20 samples.

Results

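Skin epithelial cells were found among the cells sorted from the aorta-gonad-mesonephros (AGM) region of zebrafish embryos. They are the wells with at least 1500 unique molecular identifiers (UMIs), at least 1000 CPM of krt4 (CPM being UMIs scaled to the same total in every well), and at least 3 UMIs summed over epcam, cldni, cldnb and krt91. This rule chose 350 of the 3716 cells on the 12 AGM plates. All 20 plates of the series held 6116 cells, and the same rule chose 224 cells from the caudal hematopoietic tissue (CHT). The cells were picked by measured values, so levels of krt4 and its partners are given as a description.

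The study asked how inhibition of phosphatidylinositol-3 kinase (PI3K) changes the hematopoietic stem and progenitor cells (HSPCs) that bud from the aorta. Embryos carried tg(kdrl:mCherry-CAAX/cd41:eGFP), in which the kdrl promoter marks endothelium and the cd41 promoter marks HSPCs and thrombocytes. Plates L1 to L5 hold AGM cells of embryos treated with LY294002, an inhibitor of PI3K. Plates C1 to C4 hold AGM cells of wild-type control embryos, for which the methods name DMSO as the vehicle. Plates X1 to X3 hold cells of both treatments, and the treatment of each well is not used here. All AGM cells are from 36 hpf, and pigment formation was blocked with PTU. The CHT plates are from 5 dpf and hold cells of ptena-/-ptenb-/- mutants (M1, M2), their siblings (S1, S2), LY294002-treated larvae (V1, V2) and wild-type controls (W1, W2). AGM regions of many embryos were pooled, dissociated and sorted for mCherry-positive cells with low eGFP, so a plate is a sample of a pool and not of an animal. The labels say that not all wells of the later plates were used in the study. All wells were used here.

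The skin of the zebrafish embryo is a bilayer. A superficial sheet of periderm cells, which carries ridges of actin and is rich in keratins, lies over basal keratinocytes, which depend on the transcription factor tp63 and lay down collagen and laminin. Ionocytes, which take up salts and secrete acid, arise from the same ectoderm under the forkhead factors foxi3a and foxi3b and are scattered between the keratinocytes. Keratins form the intermediate filaments of these cells, claudins such as cldni and cldnb seal their tight junctions, and epcam is an adhesion molecule of epithelia.

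The level of krt4, a keratin of embryonic skin, spanned 1032 to 192879 CPM among the 350 cells, with a median of 10576 CPM. In the other AGM cells the median was 79.9 CPM. The chosen cells nearest to the limit had 1032, 1042, 1059, 1060 and 1093 CPM of krt4, and the nearest cells left out for krt4 alone had 974, 914, 881, 850 and 814 CPM. The limit therefore cut through a thin tail, with 19 chosen cells between 1000 and 2000 CPM and 25 cells with enough marker UMIs between 500 and 1000 CPM. A further 119 of the 469 cells with enough krt4 had fewer than 3 marker UMIs, and 19 of these had 2. The marker UMIs of the chosen cells had a median of 49.1, and 11 of the cells had 3.

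Shares are of wells with at least 1500 UMIs on a plate, with 95% Wilson intervals that cover counting error only. Among LY294002 plates, skin epithelial cells made up 0 of 338 cells on L1 (interval up to 1.12%) and 1 of 363 on L2 (0.275%). They made up 72 of 349 on L3 (20.6%), 49 of 347 on L4 (14.1%) and 7 of 122 on L5 (5.74%). On the control plates they made up 0 of 243 cells on C1 (interval up to 1.56%) and 2 of 322 on C2 (0.621%). C3 had 94 of 378 (24.9%) and C4 had 48 of 378 (12.7%). On the plates of both treatments they made up 3.52% of cells on X1, 2.95% on X2 and 16.9% on X3. High and low plates occurred in every treatment group.

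The mean share was 8.15% ± 9.02 (SD, n = 5) on LY294002 plates and 9.55% ± 11.8 (SD, n = 4) on control plates, a difference of -1.39 points (exact permutation test, two-sided, p = 0.889, where the smallest possible p is 0.0159). The difference changed sign when C3, L1 or L2 was left out, with 3.71, 0.644 and 0.575 points. Within sort days 10 to 12 the means were 13.5% on LY294002 plates (n = 3) and 18.8% on control plates (n = 2), with an exact permutation p of 0.6 where 0.2 is the smallest possible. Within days 1 to 4 they were 0.138% on LY294002 plates and 0.311% on control plates (n = 2 each, exact permutation p = 1). No difference with treatment was detectable beside the spread between plates.

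The share differed between the early and the late days of sorting. The labels put C1, C2, L1, L2, X1 and X2 on days 1 to 4 and the other AGM plates on days 10 to 12. The first 6 plates had a mean share of 1.23% ± 1.58 (SD), with 19 skin epithelial cells in all. The later 6 plates had 15.8% ± 6.64 (SD), with 331. The difference was -14.6 points (exact permutation test, two-sided, p = 0.00216, which no arrangement of these plates can go below). The lowest later plate, L5, lay above the highest earlier plate, X1, and the direction held within control plates, LY294002 plates and plates of both treatments (-18.5, -13.4 and -13.7 points). Plates of the same day also differed, with 20.6% on L3 and 5.74% on L5, both of day 11. By the labels, not all wells of the later plates were used in the study, and all are counted here. The share among the wells that the study used was not tested. Days of sorting were not crossed with plates or pools, so which step of collection or sorting moved with the share cannot be told apart.

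**Figure D1:**
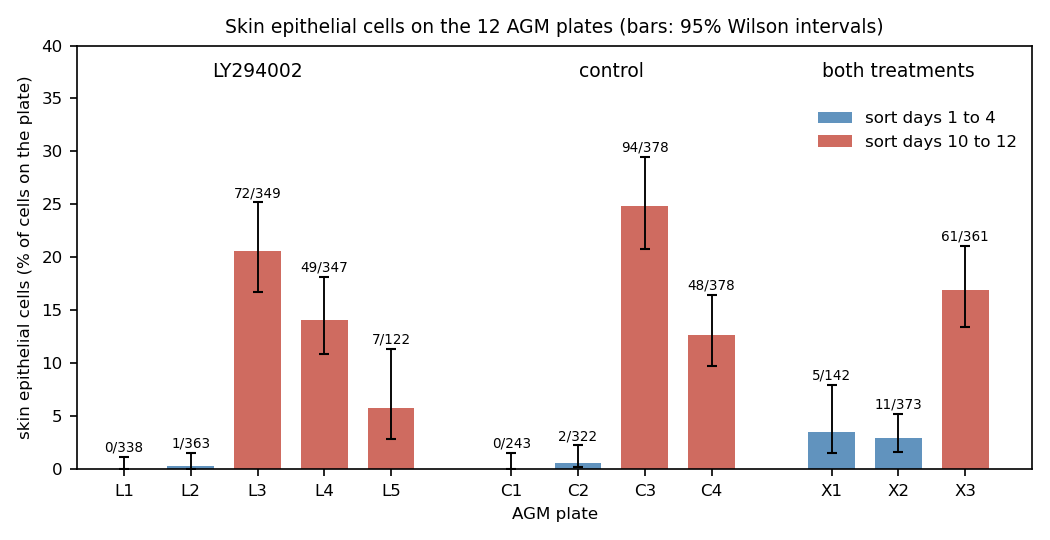
Share of skin epithelial cells among the cells of each AGM plate (y axis, percent), by treatment and colored by sort period, with 95% Wilson intervals and counts above the bars. The 6 plates of days 1 to 4 lie at or below 3.52%, and the 6 plates of days 10 to 12 lie between 5.74% and 24.9% in every treatment group.

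The skin epithelial cells held fewer UMIs than the other cells of their plate on 5 of the 6 plates with at least 10 of them. Their medians were 6783 UMIs on L3, 4209 on L4, 10515 on C3, 9775 on C4 and 7139 on X3, against 9576, 5782, 14638, 13790 and 12435 UMIs in the other cells of these plates. Plate X2 went the other way, with 28768 UMIs in 11 skin epithelial cells against 15172 in the others. So did plates with fewer of them: X1 (22549 against 9202 UMIs, 5 cells), L5 (13724 against 13010, 7 cells) and C2 (34812 against 10706, 2 cells). The single cell on L2 had 7071 UMIs against 12540. The mean log2 ratio was -0.30 ± 0.61 (SD, n = 6 plates, exact sign-flip permutation p = 0.219, smallest possible 0.0313). Without X2 it was -0.55 (exact permutation p = 0.0625, the smallest possible there). With plates of at least 5 skin epithelial cells it was -0.05 (exact permutation p = 0.844). X2 cells also stood apart in lyz, a lysozyme of neutrophils, with 15824 CPM over their summed UMIs and 4 of 11 cells above 5000 CPM.

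At least 20 skin epithelial cells were found on 5 plates (L3, L4, C3, C4 and X3, 324 cells), and the description of genes rests on UMIs summed over the cells of each. The sums held 394898 to 1042297 UMIs. Against the 1489 other cells of these plates, 643 of 1417 genes with at least 100 CPM were higher on all 5 plates (45.4%), a share that belongs to a contrast the rule itself defines and is given with no test. The cd41 gene behind the sort and endothelial genes that did not drive it were checked next. kdrl itself is not given on its own here. itga2b, the cd41 gene, had 0 UMIs in the 324 cells and was seen in 0.0672% of the other cells, so it says nothing about either. The endothelial cadherin cdh5 had a UMI in 7 of the 324 cells (2.16%), against 5.44% of the other cells. The endothelial factor fli1a was seen in 5.86% of the skin epithelial cells and in 46.4% of the others. The wider list of endothelial genes did not follow them. Of its 9 genes with at least 10 CPM, 6 were higher than in other cells on all 5 plates and 2 lower. Of all 8381 genes at that level, 34% were higher on all 5 plates and 19.9% lower. The higher list genes included the collagen chaperone gene serpinh1b, the protease gene ctsla and the ephrin gene efna1b. serpinh1b averaged 1297 CPM in the basal keratinocyte-like group of cells described below, against 249 CPM in the remaining skin epithelial cells. The list summed to 1310 to 1887 CPM against 664 to 1069 CPM in other cells. Whether its rise reflects endothelial identity was not tested. The summed cdh5 level on L4 was above that of the other cells.

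Keratins led the genes of these cells. The keratin gene krt91 (ENSDARG00000036830) had 1966, 4013, 2526, 848 and 1486 CPM on L3, L4, C3, C4 and X3, against 13.6, 23, 19.9, 6.71 and 10.5 CPM in the other cells. krt4 (ENSDARG00000017624) had 18814, 36461, 20921, 11637 and 13579 CPM, against 209, 678, 269, 96.4 and 99.6 CPM. The keratin gene cyt1l had 428 to 683 CPM on 4 plates and 4050 CPM on L4, and krt5 had 424 to 766 CPM on the same 4 plates and 1676 CPM on L4. In both genes L4 stood above the rest, and L4 was also the highest plate for krt4 and krt91. Of the 13 other keratin genes with at least 10 CPM, 11 were higher than in other cells on every plate, where 34% of the 8381 genes at that level were higher and 19.9% lower. krt8, which pairs with type I keratins in simple epithelia, had 2010 to 3605 CPM against 212 to 366 CPM, and krt18, such a partner, had 1962 to 2881 CPM against 89.8 to 271 CPM.

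Junction genes were raised as a group. Cells of the skin held 1612 to 2634 CPM of cldni (26.4 to 58.9 CPM in other cells), 1693 to 2438 CPM of epcam (17.4 to 63.6 CPM) and 906 to 1370 CPM of cldnb (26.7 to 57.9 CPM). All 3 are genes of the rule. Among genes that the rule did not name, 16 of 18 tight junction genes, 13 of 13 adherens junction and epithelial identity genes and 8 of 9 desmosome genes were higher on all 5 plates. The share among all 8381 genes with at least 10 CPM was 34%. The claudin cldn7b had 543 to 774 CPM against 6.40 to 21.8 CPM, and jupa, the plakoglobin that links desmosomes and adherens junctions to the cytoskeleton, had 737 to 1072 CPM against 41 to 75.5 CPM. dspa, a desmoplakin, had 249 to 504 CPM against 6.91 to 13.7 CPM.

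Genes of the basal layer and its matrix were higher as well. All 22 basal keratinocyte genes with at least 10 CPM were higher than in other cells on all 5 plates, where 34% of all 8381 genes at that level were. The collagen I chain gene col1a2 had 1357, 1645, 1713, 974 and 918 CPM on L3, L4, C3, C4 and X3, against 23.8, 23, 17.1, 8.60 and 4.61 CPM in other cells. Its partners col1a1b and col1a1a had 1406 to 2796 CPM and 891 to 2029 CPM. Matrix genes also filled the leading 20 genes, with sparc, a collagen-binding glycoprotein, at 1350 to 1965 CPM, col4a5, a basement membrane collagen, at 511 to 714 CPM, and the tenascin tnw at 561 to 849 CPM. tnc, the tenascin C gene, was at 526 to 791 CPM on 4 plates and at 63.3 CPM on L4. tp63, the master factor of the basal layer, had 156 to 281 CPM against 1.89 to 3.33 CPM, and itgb4, an integrin of hemidesmosomes, had 116 to 245 CPM against 0.768 to 6.86 CPM.

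Ionocyte genes stood in the same sums. atp1b1b, a beta subunit of the sodium pump, had 2774, 1256, 1565, 884 and 3349 CPM, against 21.1, 15.2, 39.9, 7.34 and 14.1 CPM in other cells. foxi3b had 118 to 428 CPM against 1.89 to 5.12 CPM. Of the 13 ionocyte genes with at least 10 CPM, 6 were higher on every plate. This count is not far from the 34% of all 8381 genes at that level that were higher. Immediate early genes, which respond within minutes to growth signals, were higher for 16 of 19. fosab, a Fos subunit of AP-1, had 1022 to 2186 CPM against 194 to 349 CPM, and egr1, a zinc finger factor of the same response, had 247 to 494 CPM against 17.4 to 51.6 CPM.

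**Figure D2:**
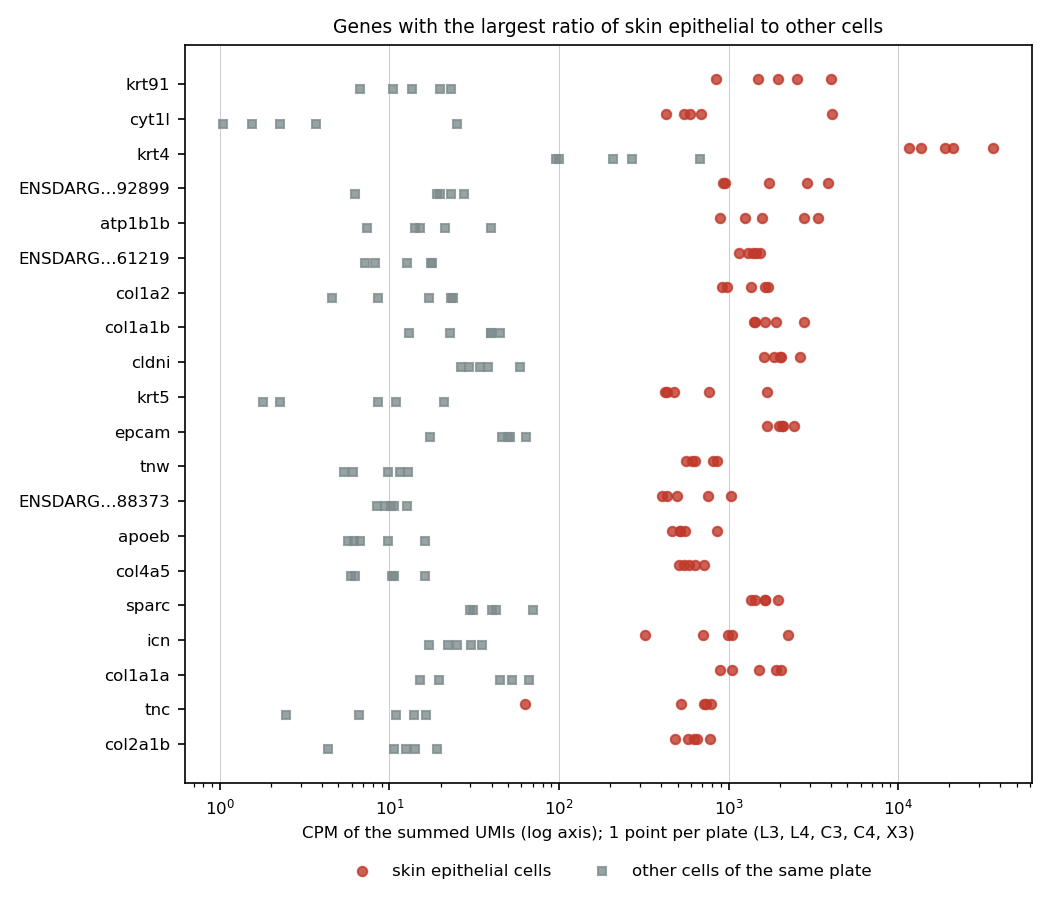
The 20 genes with the largest ratio of skin epithelial cells to other cells: CPM of the summed UMIs on a log axis, with 1 point per plate for skin epithelial cells (circles) and for the other cells of the same plate (squares). The 5 values of skin epithelial cells lie above the 5 values of other cells for each gene, and tnc on L4 (63.3 CPM) comes nearest to them.

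Genes of mature blood cells went the other way but did not reach 0. All 10 neutrophil genes, all 5 pan-leukocyte genes and all 6 erythroid genes with at least 10 CPM were lower than in other cells on every plate. Among all 8381 genes at that level, 19.9% were lower and 34% higher. The summed neutrophil list was at 1680 to 3936 CPM, against 37458 to 60491 CPM in other cells. lyz had 1410, 2194, 906, 1457 and 1159 CPM in skin epithelial cells, against 36458, 41584, 26217, 28853 and 32753 CPM in the others, which is 3.46% to 5.28% of the level there. The granule genes npsn and mpx stood at 3.06% to 5.57% and 4.38% to 6.80% of the other cells, and the actin regulator coro1a of leukocytes at 3.42% to 6.79%. Of 7 monocyte and macrophage genes, 5 were lower and 1 higher. The HSPC list was divided, with 3 of 13 genes higher and 3 lower, and its sum of 5063 to 7723 CPM overlapped with 4086 to 7526 CPM in other cells. The single thrombocyte list gene with at least 10 CPM, the fibronectin fn1b, was higher on every plate. A lyz UMI was found in 98.8% of skin epithelial cells (median 8109 UMIs) and in 99.9% of other cells (median 11053 UMIs). At 5 or more UMIs summed over lyz, mpx, npsn, marco, mfap4, myb and the endothelial cdh5, 324 of the 350 cells carried blood or endothelial transcripts. Free RNA in the wells and wells with more than 1 cell were not tested. myb, a factor of HSPCs, was an exception in size, with 40.5 to 140 CPM, or 32.4% to 76.5% of its level in other cells. In the groups of cells described below, myb averaged 356 CPM in group 5 and 232 CPM in group 6, against 22.9 to 54.8 CPM in the rest.

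The 350 cells were not alike. They were divided into 8 groups by hierarchical clustering of their variable genes, with mitochondrial genes left out, and a group was named only where genes of a marker list led it. Groups are described with no test, since the same values formed them. The share of all genes higher in each group is not given. Counts of list genes higher in a group therefore cannot be judged alone. Group 2 (91 cells) was basal keratinocyte-like. Of 25 basal genes, 22 were higher there than in the remaining cells, and 6 were among its leading 25 genes. Its means were 3472 CPM of col1a1a, 3170 CPM of col1a2, 419 CPM of itgb4 and 145 CPM of the laminin lamb4, together with 715 CPM of the water channel aqp3a and 1898 CPM of the apolipoprotein apoeb. krt4 was high, with a median of 30774 CPM. tp63 was seen in 68 of these cells, with a mean of 348 CPM, below the 512 CPM of group 3. The leading 25 genes of group 2 also held 3 genes of the periderm list, of whose 22 genes 10 were higher there.

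Group 8 (7 cells) was periderm-like. Its krt4 median was 137566 CPM, and 19 of 22 periderm genes were higher than in the remaining cells. The secretory gene agr1 averaged 3170 CPM, icn2 7447 CPM and cyt1l 14873 CPM, and evpla, an envoplakin, 707 CPM. All 7 cells had UMIs of these genes. Of 25 basal genes, 1 was higher there, the keratin krtt1c19e, at 7505 CPM and in all 7 cells. tp63 was found in 1 cell and itgb4 in 0 of 7, and col1a1a averaged 61.7 CPM. The cells were deep, with a median of 31783 UMIs, and 5 of the 7 came from days 1 to 4. krt8 was at 356 CPM, the lowest mean of the 8 groups.

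Groups 4 (43 cells) and 6 (27 cells) were ionocyte-like, and each expressed foxi3b, at 1200 and 697 CPM. Of 12 ionocyte genes, 9 were higher than in the remaining cells in group 4 and 10 in group 6, and atp1b1b averaged 5375 CPM in group 6 as well. Their leading genes differed. Group 4 led with atp1b1b (11617 CPM), ogmb (1870 CPM), ndrg1a (9644 CPM) and 4 genes that the tables name KCNJ1, after a potassium channel of kidney and ionocytes. Near-identical KCNJ1 copies may share reads. Group 6 led with gcm2, the factor that directs the acid-secreting ionocytes (899 CPM), rhbg, an ammonium transporter (1394 CPM), atp6v1aa, a subunit of the proton pump (808 CPM), and foxi3a (389 CPM). gcm2 averaged 1.68 CPM in group 4. Of all 350 cells, 28 had a gcm2 UMI and 6 a UMI of the sodium-chloride cotransporter slc12a10.2. The 0 cells with both say nothing, since so few cells had either. Of the genes that led group 4, ndrg1a was seen in 162 cells and together with gcm2 in 17. ogmb was seen in 56 cells and together with gcm2 in 4. foxi3a and foxi3b were seen in 33 and 65 cells and together in 18. Group 4 was the shallowest, with a median of 4786 UMIs.

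Groups 1 (93 cells) and 3 (51 cells) could not be given a type. Group 1 led with eya1 and six1b, which act together in placodes and the lateral line (498 and 172 CPM), tfap2a, a factor of ectoderm and neural crest (601 CPM), wnt9b, a signaling ligand (1021 CPM), and tnw (1297 CPM). eya1 was seen in 120 of the 350 cells, six1b in 76 and both in 58. Only 2 of the leading 25 genes were on the lateral line list. The leading genes of group 3 included the collagen col15a1b (324 CPM) and the signaling ligand shha (147 CPM). tnc averaged 2639 CPM there, the growth factor gene fgf8a 113 CPM, tp63 512 CPM and fosab 4162 CPM.

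Groups 5 (28 cells) and 7 (10 cells) hold cells that go against the label. Group 5 was a mixture led by genes of single cells, such as the pituitary hormone prl, of which 4 cells there held a UMI, and the hatching enzyme he1a, found in 1. The neuroendocrine gene scg3 was seen in 6 of its cells, and agr2, of secretory cells, in 7. Group 7 was led by mfap4 (3487 CPM), a gene of zebrafish macrophages, with marco, a scavenger receptor, at 368 CPM. Its lyz mean was 16730 CPM with a median of 3646 CPM, and krt8 was at 386 CPM. Of its 10 cells, 4 came from days 1 to 4. Skin epithelial cells are thus a broad name for the wells that met the rule, and the ionocyte-like groups and these cells are counted in every sum.

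**Figure D3:**
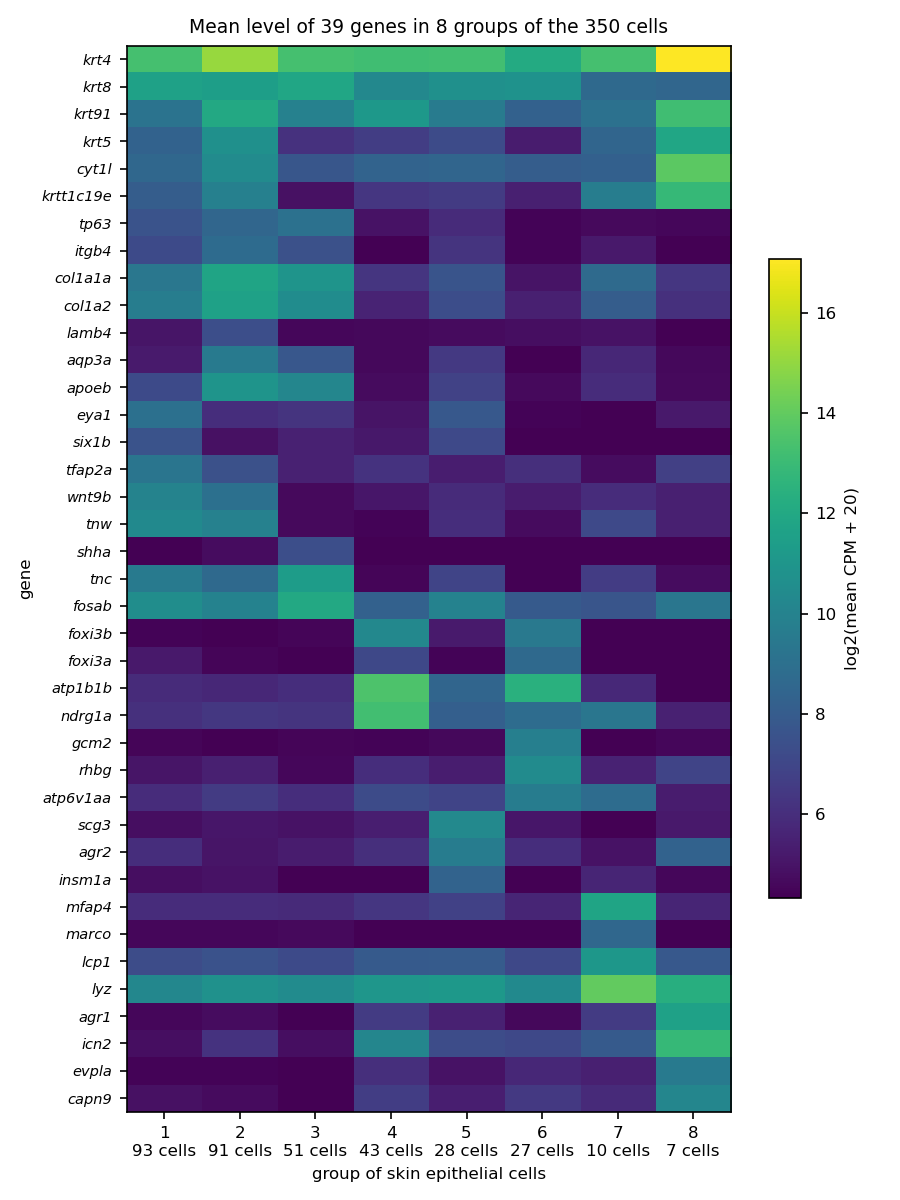
Mean level of 39 genes, as log2(mean CPM + 20) on the color scale, in the 8 groups of the 350 skin epithelial cells (columns, with their cell counts). Collagen genes are brightest in group 2, eya1 and six1b in group 1, tnc in group 3, foxi3b in groups 4 and 6, gcm2 in group 6, mfap4 in group 7, and krt4, agr1 and icn2 in group 8.

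LY294002 was then compared with control in the summed skin epithelial cells of L3 and L4 against C3 and C4. X3 entered as a further group. It was the only plate of that group, so it added no replicate to the estimate of spread. It did enter the filter on low counts and the scaling. edgeR's quasi-likelihood test with Benjamini-Hochberg adjustment tested 8025 genes at an adjusted p of 0.05. It called 13 genes higher in LY294002 cells (0.162%) and 0 lower, and 899 genes had an unadjusted p under 0.05. DESeq2 called 20 higher and 3 lower. With 2 plates a treatment, 43.3% of all tested genes had plates that did not overlap. The skin epithelial cells of L3 and L4 were also shallower than those of C3 and C4 (medians above). L3 was sorted on day 11 and L4 on days 11 to 12, while C3 was sorted on day 10 and C4 on days 10 to 11, so treatment and sort day cannot be told apart.

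The 13 included transcripts of the mitochondrial genome. AC024175.4 (ENSDARG00000080337) had 71160 and 31852 CPM on L3 and L4, against 8767 and 13906 CPM on C3 and C4, and 25729 CPM on X3. The log2 fold change was 2.23 (SE 0.32, adjusted p = 0.0332 by edgeR's quasi-likelihood test). AC024175.17 had 2068 and 1148 CPM, against 299 and 375 CPM, with a log2 fold change of 2.30 (SE 0.31). The other cells of the same plates showed a like difference, with 61769 and 29247 CPM of AC024175.4 on L3 and L4, against 9515 and 9875 CPM on C3 and C4. Of the 13 called genes, 8 were also higher on both LY294002 plates in the other cells, with no share over all tested genes given beside this count.

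Several of the called genes belong to 1 of the groups described above or to few cells. ogmb, which led group 4, had 287 and 195 CPM in LY294002 cells, against 67.4 and 58 CPM in control cells, and 279 CPM on X3 (log2 fold change 1.97, SE 0.32). Of the 43 cells of group 4, 13 and 6 lay on L3 and L4, 3 and 4 on C3 and C4, and 15 on X3. icn2, a periderm gene, had 246 and 656 CPM against 39.4 and 85.1 CPM (2.94, SE 0.48), and 36.5% of its UMIs came from a single cell. MFAP4 (ENSDARG00000088745), of group 7, had 188 and 109 CPM against 23 and 32.8 CPM (2.48, SE 0.39), and the unnamed ENSDARG00000070622 had 53.3% of its UMIs in a single cell. Group 7 had 3 cells each on L3 and L4 and 0 on C3 and C4. ptgdsb, a prostaglandin D2 synthase, had 101 and 492 CPM against 4.80 and 13.5 CPM (5.18, SE 0.75), with 63.8% of its UMIs in a single cell. Without cells that held a foxi3b UMI or at least 2000 CPM of atp1b1b, ogmb was not among the tested genes, 9 of the other 12 were still called, and icn2, zgc:153284 and ENSDARG00000078432 were not. Without cells above 5000 CPM of lyz, 11 of the 13 were still called, and MFAP4 and ogmb were not. The part of single cells in the other calls was not tested.

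The embryonic globin hbbe3 had 318 and 973 CPM in LY294002 cells and 78.7 and 96.6 CPM in control cells (2.92, SE 0.46, adjusted p = 0.0385 by edgeR's quasi-likelihood test). In the other cells of these plates it had 3200 and 8378 CPM against 1331 and 1114 CPM, so it was high on the same plates outside the skin. The remaining called genes were ENSDARG00000070212, ENSDARG00000082180 and ENSDARG00000096145, which were also higher in the other cells of L3 and L4, zgc:153284 (95.5 and 88.7 CPM against 22.1 and 19.3 CPM) and ENSDARG00000078432, with 52.3% of its UMIs in a single cell. Globin copies are alike in sequence and may share reads.

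None of the calls held in every setting. With X3 left out, 6354 genes were tested and 0 were called. With plates of at least 10 or 5 skin epithelial cells 0 were called as well. All 13 genes kept their sign in each case. Without L4, 6 of the 13 were still called, and without L3, 8 were. Without C3 or C4 the calls grew to 116 and 152 genes, among them all 13.

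The 3 genes of lowest p in the other direction did not pass the test. fosaa, a Fos gene, had 41.2 and 22.8 CPM in LY294002 cells against 110 and 197 CPM in control cells (log2 fold change -2.17, SE 0.42). odc1, the enzyme of polyamine synthesis, had 197 and 238 CPM against 598 and 551 CPM (-1.37, SE 0.27). Each had an adjusted p of 0.0827 by edgeR's quasi-likelihood test. prl had no UMI on L3 or L4 and 491 and 30.9 CPM on C3 and C4, and 88.8% of its UMIs came from a single cell. It was spread over 31 and 12 skin epithelial cells of C3 and C4, and the other cells of L3 and L4 held 4.53 and 0.490 CPM of it, against 457 and 517 CPM on C3 and C4.

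The targeted pathway was described next. Of 21 tested genes of PI3K and FoxO response, 0 were called in either direction, with a median log2 fold change of 0.23, where the median of all genes was -0.02. ptena had 95.4 and 157 CPM in LY294002 cells against 120 and 96.6 CPM in control cells (0.23, SE 0.34). ptenb had 146 and 127 CPM against 187 and 131 CPM (-0.20, SE 0.31). txnipa, which FoxO factors are known to induce in other systems, had 788 and 490 CPM against 778 and 996 CPM (-0.43, SE 0.28). With 0.162% of all tested genes called, a count of 0 says little about a list. None of the other keratins (13 tested), basal keratinocyte genes (22), tight junction genes (20), desmosome genes (9), ionocyte genes (12) or replication genes (22) were called, and 1 of 17 periderm genes was, icn2.

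**Figure D4:**
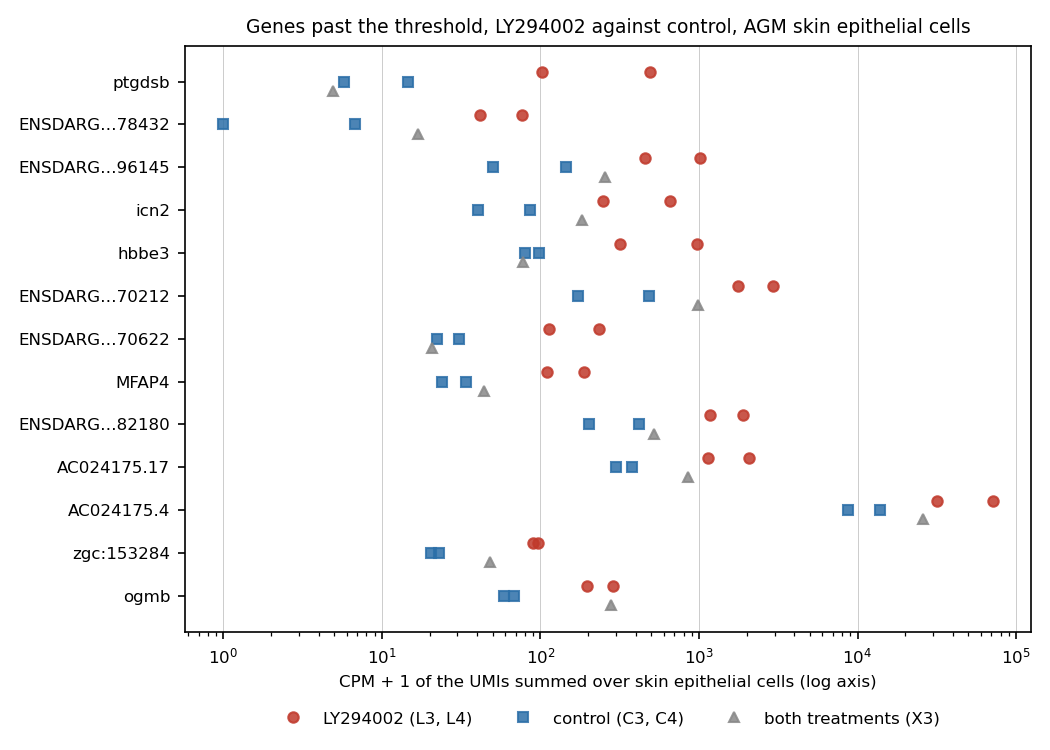
The 13 genes called between LY294002 and control: CPM + 1 of the UMIs summed over skin epithelial cells on a log axis, for LY294002 plates L3 and L4 (circles), control plates C3 and C4 (squares) and plate X3 of both treatments (triangles). Both LY294002 plates lie above both control plates for each gene, and X3 lies between the treatments for AC024175.4 (25729 CPM) and beside the control plates for hbbe3 (76.9 CPM).

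The same rule chose 78 and 80 cells from the CHT plates M1 and M2 of ptena-/-ptenb-/- larvae, which allowed a comparison of skin epithelial cells between tissues. The 5 AGM plates were set against these. Tissue, stage, genotype and sort day go together here and cannot be told apart. The other CHT plates held 5 to 16 such cells each and are given as values. edgeR's quasi-likelihood test with Benjamini-Hochberg adjustment tested 7245 genes and called 2801 (38.7%), of which 1299 were higher in AGM cells (17.9%) and 1502 lower (20.7%). The fitted log2 fold changes lie 0.55 below the log2 ratio of the CPM values at the median. Of all tested genes, 55.6% had AGM plates that did not overlap with M1 and M2, and the median log2 fold change was 0.03.

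Keratin genes differed widely between the tissues. krt4 had 11637 to 36461 CPM in AGM cells and 18216 and 18760 CPM in CHT cells, and did not pass the test (log2 fold change -0.40, SE 0.38). krt91 was lower in AGM cells, with 848 to 4013 CPM against 52212 and 56472 CPM (-5.18, SE 0.44, adjusted p = 1.01e-05 by edgeR's quasi-likelihood test). krt5 was lower as well, with 424 to 1676 CPM against 7151 and 6179 CPM (-3.68, SE 0.46). The largest falls were in si:dkey-183i3.5, with at most 2.53 CPM in AGM cells against 3328 and 3872 CPM (-12.13, SE 0.38), and zgc:136930, with at most 20.3 CPM against 9965 and 11038 CPM (-12.03, SE 0.64). These 4 genes were also high on the 5 other CHT plates with at least 10 cells, where krt91 had 31419 to 46638 CPM and krt5 15395 to 20418 CPM. krt18 was also lower (-1.34, SE 0.19), with 1962 to 2881 CPM against 4071 and 3937 CPM, but the other CHT plates had 63.9 to 312 CPM, and krt18 was higher in AGM cells (2.73) in a fit without the pten mutants. That fit also took plates with at least 10 skin epithelial cells, 6 of the AGM and 5 of the CHT, so it differs in both choices.

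Of the 5 genes of the rule, cldnb was higher in AGM cells (906 to 1370 CPM against 458 and 556 CPM, log2 fold change 0.64), krt91 and cldni were lower (cldni 1612 to 2634 CPM against 2522 and 2482 CPM, -0.85), and krt4 and epcam did not pass. epcam had 1693 to 2438 CPM against 1477 and 1671 CPM. Of 17 tight junction genes, 6 rose and 4 fell, where 17.9% of all tested genes rose and 20.7% fell. cldnh, a claudin, rose with 246 to 559 CPM against 25.6 and 31.2 CPM (3.16, SE 0.40), and cldn1, a claudin of epidermis, fell with 215 to 543 CPM against 740 and 737 CPM (-1.60, SE 0.29). In the fit without the pten mutants 1 of 13 tight junction genes was higher and 2 lower, where 16.9% of all genes were higher and 15.2% lower. By edgeR's quasi-likelihood test cldnh and cldnb did not pass there (0.99 and 0.96, adjusted p = 0.284 and 0.0771), and epcam was lower (-0.73, adjusted p = 0.0236). Without cells that held a foxi3b UMI or at least 2000 CPM of atp1b1b, 4 of 14 tight junction genes rose and 7 fell (median -0.29). Then 20.6% of all tested genes rose and 21.1% fell. Among the 5 rule genes 0 rose and 1 fell, which was krt91, so cldnb and cldni did not pass.

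Genes of the basal layer and of the cell cortex were mostly lower in AGM cells. Of 22 basal keratinocyte genes, 12 fell and 4 rose (median log2 fold change -0.89), where 20.7% of all tested genes fell and 17.9% rose. col17a1a, the collagen of hemidesmosomes, had at most 1.97 CPM in AGM cells against 133 and 140 CPM (-7.42, SE 0.43), and 303 to 662 CPM on the other CHT plates. col1a1b fell as well (1406 to 2796 CPM against 2953 and 3683 CPM, -1.40, SE 0.26). Of 12 genes of microridges and the actin cortex, 9 fell and 0 rose (median -1.33). actb2, a cytoplasmic actin, had 8709 to 11740 CPM against 21160 and 22745 CPM (-1.61, SE 0.19), and pfn1, a profilin, had 1866 to 3968 CPM against 6103 and 5816 CPM (-1.64, SE 0.26). Of 12 genes of S100 proteins and annexins, 8 fell and 1 rose (median -0.92). anxa2a, a membrane-binding annexin, had 388 to 488 CPM against 3302 and 3410 CPM (-3.46, SE 0.17). In the fit without the pten mutants 3 of 11 genes of the actin cortex list, 4 of 11 of the S100 and annexin list and 11 of 21 basal genes were lower. Among all genes of that fit 15.2% were lower. There actb2 did not pass (-0.42, adjusted p = 0.101 by edgeR's quasi-likelihood test), while pfn1 and anxa2a were still lower (-1.49 and -1.73).

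Of 10 ionocyte genes tested, 5 rose and 0 fell, where 17.9% of all tested genes rose and 20.7% fell. foxi3b had 186, 124, 160, 118 and 428 CPM on L3, L4, C3, C4 and X3, against 4.26 and 9.60 CPM (4.31, SE 0.63, adjusted p = 0.000307 by edgeR's quasi-likelihood test). foxi3a had 15.5 to 97.2 CPM and no UMI on either CHT plate, at least 52.4-fold higher by the floor of 3 UMIs over the CHT plates. gcm2 had 26.2 to 127 CPM against 0 and 1.60 CPM, and atp1b1b 884 to 3349 CPM against 195 and 154 CPM (2.94, SE 0.51). Of 4 lateral line genes tested, 3 rose. eya1 had 81 to 316 CPM against 1.42 and 3.2 CPM (5.76, SE 0.63), six1b 38 to 128 CPM against 1.42 and 0 CPM (5.74, SE 0.84), and sox2 11.8 to 52.2 CPM with no UMI on the CHT plates, at least 36.4-fold higher. In the fit without the pten mutants 4 of 6 ionocyte genes were higher and 1 lower, and 3 of 4 lateral line genes were higher. Among all genes of that fit 16.9% were higher and 15.2% lower.

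The tenascin genes rose. tnw had 561 to 849 CPM in AGM cells against 7.11 and 4.80 CPM (6.27, SE 0.36), and tnc had 63.3 to 791 CPM against 12.8 and 0.800 CPM (5.74, SE 1.01). col14a1a, a fibril-associated collagen, had 48 to 88 CPM and no UMI on M1 or M2, at least 56.8-fold higher. The largest increases with no UMI in the mutants also took in ENSDARG00000019659, pvalb8, ppp1r3b, nkx2.7, agrp, dlx4a and si:ch211-214p16.2, with lower bounds of 31- to 89.7-fold. These bounds are against the mutant plates only. In the fit without the pten mutants the log2 fold changes were 3.02 for col14a1a, 2.72 for pvalb8, 4.14 for ppp1r3b and 7.68 for ENSDARG00000019659. The lowest value of si:ch211-214p16.2 over its 14 alternatives was 1.33. Beside si:dkey-183i3.5, zgc:136930 and col17a1a, the largest decreases took in cd44a, a hyaluronan receptor (at most 1.97 CPM in AGM cells against 251 and 266 CPM), lepb, a leptin (at most 7.73 CPM against 170 and 220 CPM), hbae1.2 and 4 unnamed genes. cd44a was at 0 to 12.1 CPM on the other CHT plates.

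txnipa, an inhibitor of thioredoxin that is tied to glucose supply, was among the clearest changes. It had 788, 490, 778, 996 and 792 CPM on L3, L4, C3, C4 and X3, against 10.7 and 9.60 CPM on M1 and M2 (5.67, SE 0.35, adjusted p = 1.39e-06 by edgeR's quasi-likelihood test). The 5 other CHT plates had 0 to 77.3 CPM, and in the fit without the pten mutants the log2 fold change was 3.55. Of 20 genes of PI3K and FoxO response, 8 rose and 3 fell (median 0.60), where 17.9% of all tested genes rose and 20.7% fell. In the fit without the pten mutants 1 of 15 was higher and 3 lower (median 0.16), and on wild-type control plates with at least 10 cells 1 of 14 was higher and 2 lower (median -0.33). Among all genes, 16.9% were higher and 15.2% lower in the first of these fits, and 8.92% and 12.8% in the second. ptena and ptenb were at 95.4 to 157 CPM and 116 to 187 CPM in AGM cells, against 45.6 to 50.5 CPM and 63.2 to 68.8 CPM in the mutants, and did not pass (0.71 and 0.56).

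Of 20 genes of replication and mitosis, 5 rose and 0 fell (median log2 fold change 0.76). In this fit the 25% that rose is near the 17.9% of all tested genes, of which 20.7% fell. hmgb2b, a chromatin protein of dividing cells, had 354 to 662 CPM against 112 and 56 CPM (2.16, SE 0.34), and hmga1a, a chromatin protein of progenitors, had 2618 to 4360 CPM against 815 and 692 CPM (1.68, SE 0.25). Of 9 heat shock genes 3 fell (33.3%) and 0 rose, with hsp70.3 at 335 to 1065 CPM against 2476 and 2093 CPM (-2.39, SE 0.34). Of 11 genes of sterol synthesis, 7 fell and 0 rose (median -1.06). In the fit without the pten mutants 9 of 18 replication genes were higher and 0 lower (median 1.45). There 6 of 9 heat shock genes and 6 of 8 sterol genes were lower. On wild-type control plates with at least 10 cells, 4 of 16 replication genes were higher and 0 lower. Among all genes, 16.9% were higher and 15.2% lower in the first of these fits, and 8.92% and 12.8% in the second.

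Blood transcripts differed between these sums too. Of 10 neutrophil genes tested, 6 were higher in AGM cells and 3 lower, and all 3 thrombocyte list genes were lower. Among all tested genes 17.9% were higher and 20.7% lower. lyz was higher in AGM skin epithelial cells (906 to 2194 CPM against 40.5 and 6.40 CPM, 5.34, SE 0.65), mmp9, a metalloproteinase of neutrophils and of wounded skin, was lower (260 to 637 CPM against 3794 and 3687 CPM, -3.68, SE 0.30), and 10 of 11 erythroid genes were lower, with hbae3 at 100 to 729 CPM against 3274 and 3824 CPM (-4.28, SE 0.62). The globin hbbe3 was higher instead (76.9 to 973 CPM against 2.84 and 7.20 CPM, 5.40, SE 1.33). In the fit without the pten mutants mmp9 did not pass (-0.72, adjusted p = 0.167 by edgeR's quasi-likelihood test). lyz was still higher there and hbae3 still lower (4.57 and -3.33). Since blood genes moved with the tissue in both directions, how far free RNA of each plate entered other calls was not tested.

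**Figure D5:**
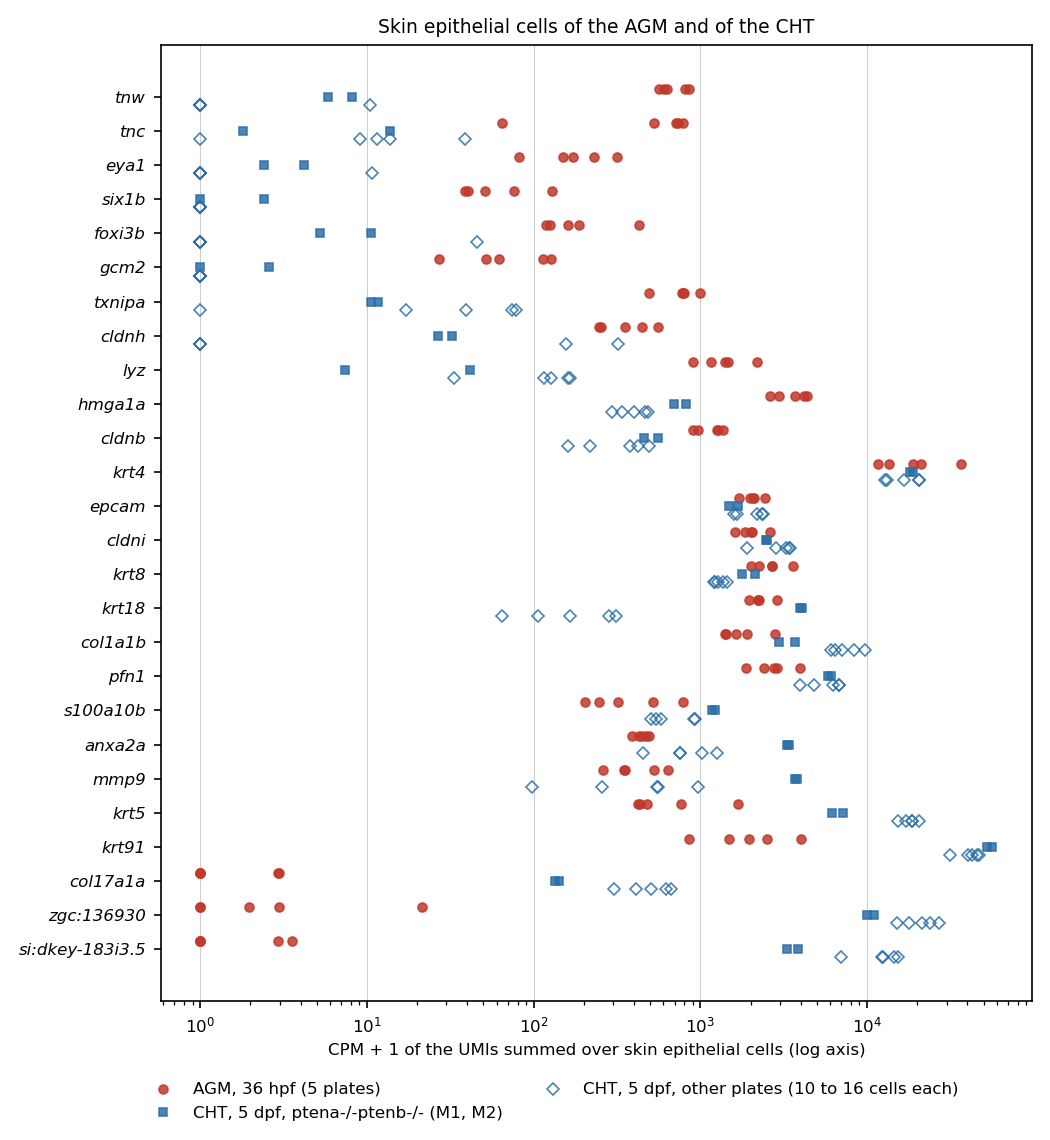
CPM + 1 of the UMIs summed over skin epithelial cells on a log axis for 26 genes, on the 5 AGM plates (circles), the CHT plates M1 and M2 of ptena-/-ptenb-/- larvae (filled squares) and the other CHT plates with 10 to 16 such cells (open diamonds). tnw, eya1 and txnipa lie to the right in AGM cells, krt91, krt5 and col17a1a to the left, and krt18 and mmp9 are higher in the mutants than on the other CHT plates, which lie at or below 312 and 973 CPM.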

How the data were processed

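Single cells were sorted into 384-well plates and their transcripts counted by SORT-seq, a plate form of CEL-Seq2, on 20 plates. The deposited values are estimated counts per gene and well, which the authors made by mapping reads to the Zv9 transcriptome, counting UMIs and correcting them for collisions. The submitters' processing notes name BWA and Zv9, with no versions. Spike-in rows and 1 row that named no gene were left out of totals. The same 384 well barcodes serve every plate, and no well of at least 1500 UMIs was identical to another. Of 26651 gene IDs, 6714 had no symbol, and 476 of 559 genes of 33 lists were matched. No doublet caller was run.

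UMIs of the chosen cells were summed per plate, rounded, filtered with filterByExpr, scaled by TMM and tested with edgeR 4.0.16 in R 4.3.3 (glmQLFit, glmQLFTest), at an adjusted p of 0.05, and with DESeq2 1.42.0 as an alternative. Plates with at least 20 chosen cells entered. Sort period could not be a term, since all fitted AGM plates were of days 10 to 12, and sort periods were not compared gene by gene, since no plate of days 1 to 4 reached 20 cells. Labels do not say that plates are separate animals, so p-values measure the spread between plates, which may be technical. A fold against a group at 0 is a lower bound from 3 UMIs over the group. Genes were named if they were genes of the rule, the list genes of highest CPM, the 20 of largest ratio to other cells, or the 10 called genes of largest change each way with plates that do not overlap. Groups of cells came from Ward clustering of 10 principal components of 500 variable genes. Their genes, the alternatives without pten mutants, lyz-rich or ionocyte cells, and the extra list genes named were chosen after values were seen. The test was tried on simulated counts with a set spread that was not taken from the data. For LY294002 against control, edgeR recovered 7 of 99 genes changed by 1 log2 unit and 49 of 97 changed by 2. For AGM against CHT it recovered 15 of 86 and 57 of 72. False calls were 1 and 2. The members and lists were chosen with earlier results of these data known. Some genes of the groups are not reported here.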

Additional observations from a re-analysis of the deposited data

Results flagged for a closer look

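Among 27 sets of plate values tested for a value that stands apart, 3 had one, where chance gives about 1 in 20. In the 5 plates with at least 20 skin epithelial cells these were apoeb on L3 (853 CPM), cyt1l on L4 (4050 CPM) and krt5 on L4 (1676 CPM), each the highest of its 5 values. L4 held 1 of the 7 periderm-like cells, and the part of that cell in its values was not tested.

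ptgdsb was higher on LY294002 plates in skin epithelial cells, while the other cells of the same plates differed by -0.35 on the log2 scale. The difference between the cell types was not tested. A single cell held 63.8% of its UMIs.

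Plate L5 of LY294002-treated embryos held 7 skin epithelial cells and did not enter the main fit of genes. The fit of plates with at least 5 such cells took it in and called 0 of the 13 genes. For 9 of the 13 called genes the summed level on L5 lay above both control plates. The same share over all tested genes is not given, so this count cannot be judged. AC024175.4 had 104841 CPM there and AC024175.17 had 3021 CPM. ENSDARG00000070212 had 12006 CPM, ENSDARG00000082180 5896 CPM and ENSDARG00000096145 5732 CPM. icn2 had 2960 CPM, hbbe3 344 CPM, zgc:153284 98.1 CPM and ENSDARG00000070622 39.3 CPM. L5 also held 1 of the periderm-like cells.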

How the results depend on the processing

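The share of skin epithelial cells differed by -1.39 points between LY294002 and control plates and by -1.68 to -0.415 points under 8 other limits on depth, krt4 and marker UMIs. Leaving out 1 plate gave -4.58 to 3.71 points, with 3.71, 0.644 and 0.575 points without C3, L1 and L2. The difference between sort periods kept its direction under 8 other limits (-15.7 to -13.7 points) and without each plate (-16.6 to -12.8 points), each at the smallest p its plates allow. The log2 ratio of depth to other cells was -0.55 to -0.05 across 7 alternatives.

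Between LY294002 and control, 13 genes were higher and 0 lower. DESeq2 called 20 and 3, no filter on low counts 149 and 59, and a krt4 limit of 2000 CPM 27 and 3, while plates with at least 10 or 5 chosen cells gave 0 and 0. Without X3, 0 were higher and 0 lower, with 739 genes at an unadjusted p under 0.05. Leaving out 1 plate gave 0 to 125 higher and 0 to 30 lower. Where this left 1 plate in a group, that plate was assumed to vary like the other groups. ptenb ran between -0.44 and 0.15 and ptena between -0.13 and 0.60 on the log2 scale without 1 plate, and neither was called in the fit of all plates.

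Between AGM and CHT, 1299 genes were higher and 1502 lower. Plates with at least 10 chosen cells gave 742 and 899, with at least 5 cells 595 and 697, wild-type control plates with 10 cells 365 and 524, and plates without pten mutants, also with 10 cells, 798 and 718. Leaving out 1 plate gave 633 to 1529 higher and 918 to 1616 lower, with 723 and 918 without M1 and 633 and 960 without M2. Of the 2801 calls, 1948 were tested in the fit without pten mutants. Of these, 895 were called there, 863 of them in the same direction. krt18 was positive with 10 cells a plate (0.10), with 5 (0.088), on wild-type plates (4.15) and without pten mutants (2.73). krt4 was 0.53 with 5 cells a plate, and ptenb was -0.56 on wild-type plates. The causes were not tested.

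No paired analysis was possible because the labels give plates no replicate numbers that groups share. The alternatives that left out lyz-rich cells, ionocyte genes or pten mutants, or kept wild-type plates only, were chosen after seeing the data. Cells with 5 blood-gene UMIs could not be left out, since no AGM plate would keep 20 cells. No wild-type CHT plate held 20 cells, so the planned limit to wild-type plates was run at 10. A sort-period term and gene tests between sort periods were not run, since of the plates of days 1 to 4 X1 held 5 cells, X2 held 11 and the others at most 2.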
